A study of Mus musculus with 9 samples.

Results

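The profile described here is that of CD80+ medullary thymic epithelial cells from mice with an unaltered C2TA gene. C2TA is the class II transactivator, whose gene is Ciita in the mouse. The cells came from the thymus of female Balb/c mice aged 4-6 weeks, and 3 of the 9 samples in the series belong to this wild type group. The labels describe them as biological replicates, without the number of mice behind a sample or the gates of the sort. The other samples carried a C2TA knockdown or knockout and gave no value below. Biotin-labelled total RNA was hybridised to 1 array per sample, with 35552 probe sets. Of these, 21536 carried a gene symbol and were ranked by their mean level on the 3 arrays. They stand for 19593 genes, and a gene with several probe sets was placed by the probe set with the highest mean.

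Medullary thymic epithelial cells display the body's own proteins to developing T cells. Mature cells carry large amounts of MHC class II and the costimulatory ligand CD80, and many of them contain the autoimmune regulator AIRE. AIRE and other factors let these cells transcribe genes that are otherwise restricted to peripheral organs, such as hormones, milk proteins and digestive enzymes. Each such gene is known to be active in a small share of the cells only, and the arrays measured the whole population.

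Levels are log2 values after robust multi-array averaging (RMA), a procedure that corrects background, equalises arrays and summarises the probes of a probe set. A percentile gives the place of a probe set among the 21536 ranked ones, from 0 at the bottom to 100 at the top. Probe sets differ in how strongly they bind their targets, so a percentile is a place on the array and no ratio of transcript amounts between genes. The median percentile of all 19593 genes was 49.8. Of these genes, 45.2% were above the median of probe sets on all 3 arrays. On all 3 arrays, 19.7% were in the top 25% and 6.997% in the top 10%. Counts for the gene lists below are to be read against these shares. The files hold no call of which probe sets were detected. As a mark for the low end, the 95th percentile of the olfactory receptor probe sets of the same array was used, which lay at 3.59, 3.14 and 3.21 on wild type 1, 2 and 3. It is a mark on the scale and no detection limit. Because 1 group was described, no test was run, and the precision is limited by the number of arrays.

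Wild type 1 stood apart from the other 2 arrays. Spearman's rho over the 21536 probe sets was 0.994 between wild type 2 and 3, 0.962 between wild type 1 and 2, and 0.967 between wild type 1 and 3, given as a description of probe sets measured on the same array design. A difference of more than 1 log2 unit was found for 8.28% of probe sets between wild type 1 and 2 and for 0.0418% between wild type 2 and 3. The values of wild type 1 were also more compressed, with an interquartile range over all probe sets of 2.50 against 3.04 and 2.94. At the high end, the 90th percentile of the ranked probe sets was 6.65 on wild type 1, 7.20 on wild type 2 and 7.05 on wild type 3. At the low end, the median of the olfactory receptor probe sets was 2.32, 1.93 and 1.99. The median SD of a probe set over the 3 arrays was 0.213. The values of 2791 of the 21536 probe sets were exactly equal on at least 2 arrays, and these ties enter the SD and rho. Why they arose was not tested. Without wild type 1, the largest shift in a median percentile among the 39 gene lists used below was that of the endocrine pancreas and gut hormone list, which fell by 4.03 percentile points.

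The defining markers of the sorted cells lay near the top of every array. Cd74, the invariant chain that escorts MHC class II, measured 10.83, 11.29 and 10.96 and stood at percentile 99.9. H2-Aa, the alpha chain of the class II molecule I-A, measured 10.12, 10.99 and 10.75 and stood at 99.8. Aire measured 9.60, 10.04 and 9.93 and stood at 99.2. All 3 genes were thus in the top 1% of probe sets on each array. Cd80, the surface protein used to sort the cells, measured 6.99, 8.08 and 7.73 and stood at 94.0, with a second probe set at 76.7. All 4 markers were thus in the top 10% of probe sets on each array, with Cd80 placed by its higher probe set. The same 4 genes are counted again among the 17 markers of mature medullary epithelium below.

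**Figure D1:**
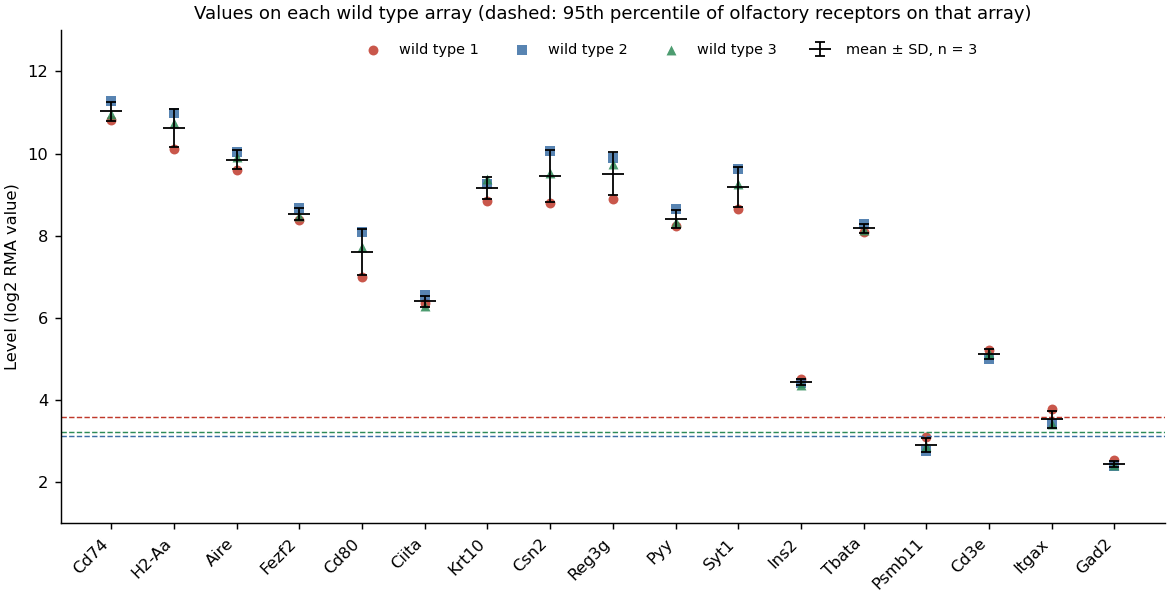
Level (log2 RMA value) of 17 genes on each of the 3 wild type arrays, with the mean and SD (n = 3) in black. The dashed lines give the 95th percentile of the olfactory receptors on the array of the same colour (3.59, 3.14 and 3.21). Cd74 to Aire lie above 9.5 on every array, whereas Psmb11 and Gad2 lie below the dashed line of each array.

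All 17 markers of mature medullary epithelium were above the median of probe sets on all 3 arrays, which held for 45.2% of all genes. Of these 17 markers, 16 were in the top 25% on all 3 arrays (19.7% of all genes) and 13 in the top 10% (6.997% of all genes), with a median percentile of 95.6. H2-Eb1, the beta chain of the class II molecule I-E, stood at 99.8 and H2-Ab1, the beta chain of I-A, at 99.5. Cldn4, a tight junction claudin of the medulla, stood at 98.4 and its relative Cldn3 at 86.5. Fezf2, a transcription factor that drives tissue-restricted genes apart from Aire, measured 8.39, 8.68 and 8.48 and stood at 97.3. Ctss, the lysosomal protease that trims the invariant chain, stood at 96.3. The receptors that receive maturation signals were also high, with Cd40 at 95.6 and Tnfrsf11a, the receptor RANK, at 93.4. The ligands Icosl (95.2) and Cd274, which encodes PD-L1 (90.3), and the chemokine gene Ccl22 (93.6) were in the top 10% by mean. Ciita, the transactivator after which the series is named, measured 6.37, 6.55 and 6.28 and stood at 84.5. Cd86, the second ligand of CD28 besides CD80, was the lowest of the 17 at 5.14, 6.28 and 5.73 (percentile 73.7), with wild type 1 the lowest array.

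Of the 16 markers of thymic epithelium as a whole, 14 were above the median on all 3 arrays (87.5%, beside 45.2% of all genes). In the top 10% were 8 (50%, beside 6.997% of all genes), and the median percentile was 92.2. The keratin genes Krt8 (99.5) and Krt18 (98.7) of simple epithelium, the adhesion genes Epcam (98.4) and Cdh1 (97.7), and the basal keratin genes Krt5 (97.0) and Krt14 (95.3) led this group. Cldn7, another claudin gene, stood at 92.4. The transcription factors spread more widely. Foxn1, the master regulator of thymic epithelium, measured 6.78, 6.74 and 6.69 and stood at 88.1. Trp63, a regulator of stratified epithelium, stood at 79.1, Eya1 at 77.1 and Pax9 at 76.6. Pax1, a factor of the early pharyngeal pouch, lay near the middle at 51.8. Hoxa3, needed for the thymus to form in the embryo, measured 2.35, 2.17 and 2.10, under the olfactory mark on each array. The signalling genes Traf6 (92.0) and Relb (86.8), both needed for the medulla to develop, were in the upper part.

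Markers of immature medullary cells were not low. Of 9 measured markers, 8 were above the median on all 3 arrays (88.9%, beside 45.2% of all genes). In the top 10% were 6 (66.7%, beside 6.997% of all genes), and the median percentile was 94.2. Ly6a, which encodes Sca-1, measured 10.33, 11.05 and 11.07 and stood at 99.8. Besides Krt5 and Krt14, which this list shares with the one above, Cd9 (95.1), Itga6 (94.2) and Apoe (93.9) were in the top 10% by mean. Itgb4, the partner of Itga6 in the integrin that anchors basal cells, stood at 81.9 and Pdpn, which encodes podoplanin, at 59.1. Dpt, the gene of dermatopontin, was the exception at 13.6. Ccl21a was not analysed here.

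Markers of cortical thymic epithelium, the sister lineage, were scattered. Of 8 measured markers, 5 (62.5%) were above the median on all 3 arrays, beside 45.2% of all genes. In the top 10% was 1 marker (12.5%, beside 6.997% of all genes), and the median percentile was 57.7. Psmb11, the thymoproteasome subunit that only cortical cells are known to use, measured 3.09, 2.75 and 2.88, below the olfactory mark on each array. Prss16, a cortical serine protease, stood at 54.5, Dll4, the Notch ligand that commits T cells, at 61.0, and Cxcl12, a chemokine, at 25.6. Il7, a survival factor for thymocytes, stood at 64.6 and Kitl, the stem cell factor, at 40.1. Against these, Tbata measured 8.10, 8.29 and 8.14 and stood at 96.3, and Ly75, which encodes the endocytic receptor DEC-205, stood at 88.1. The cortical list therefore did not behave as a block, since its most specific marker was at the bottom and Tbata was near the top.

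**Figure D2:**
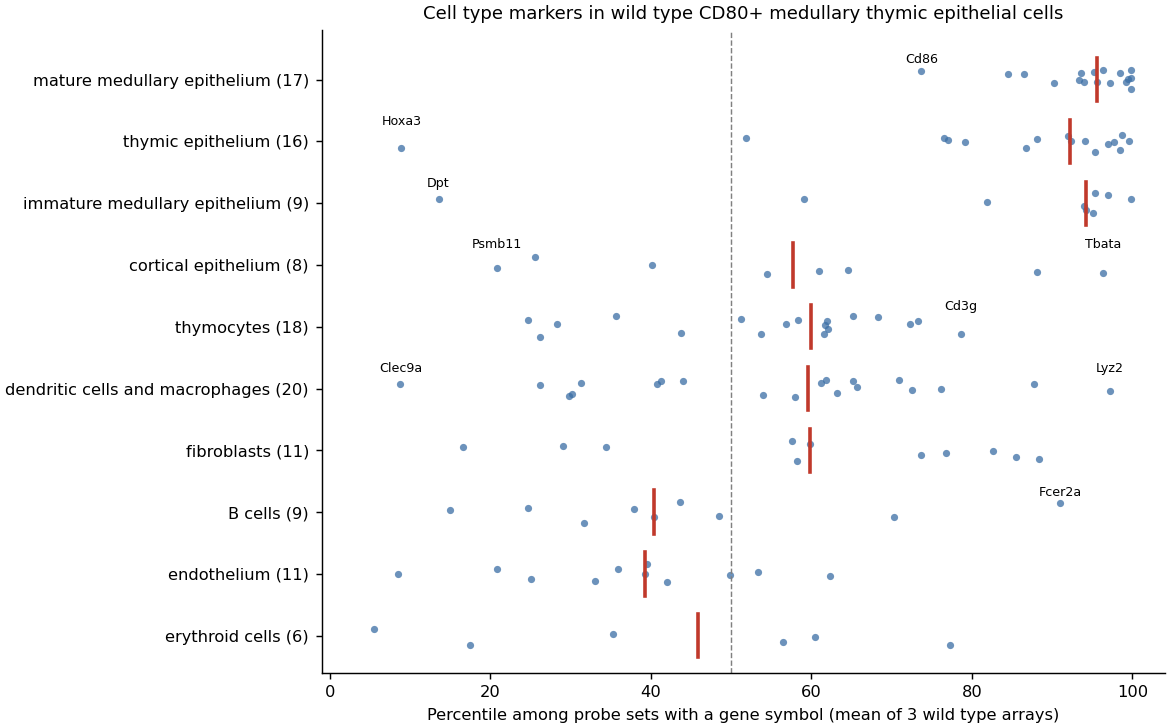
Percentile of each marker gene among the probe sets with a symbol (mean of the 3 wild type arrays), 1 point per gene, with the number of measured genes beside each list and the list median as a red bar. The dashed line marks percentile 50. The 3 lists of medullary and general thymic epithelium have medians between 92.2 and 95.6, and the other lists between 39.2 and 59.9.

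Genes of other cell types that a thymic sort could hold had lower list medians than those of medullary and general thymic epithelium. Of 18 thymocyte markers, 11 (61.1%) were above the median on all 3 arrays, beside 45.2% of all genes. None was in the top 10%, beside 6.997% of all genes. The median percentile of the list was 59.9, beside 49.8 for all genes. Cd3g, a chain of the T cell receptor complex, was the highest at 78.7. Its partner chains stood apart from it, with Cd3e at 62.1, Cd247 at 53.8 and Cd3d at 28.3. The coreceptor genes Cd4 (61.6), Cd8a (73.3) and Cd8b1 (61.9) lay in the same stretch. So did the signalling and transcription genes Lck (68.2), Tcf7 (72.2), Bcl11b (65.2) and Lat (56.9), the recombinase gene Rag1 (61.8), Ccr9 (58.3) and Cd5 (51.2). Cd2 (43.8), Zap70 (35.7), Arpp21 (26.2) and Dntt (24.7) were below the middle. In all, 15 of the 18 genes were above the olfactory mark on all 3 arrays, beside 68.0% of all genes. In bulk RNA, fewer cells of a type and less RNA per cell cannot be told apart, and the part of other cells in these values was not tested.

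Markers of dendritic cells and macrophages had a median percentile of 59.6, with 12 of 20 above the median on all 3 arrays, beside 45.2% of all genes. General dendritic cell genes were low or in the middle. Itgax, which encodes CD11c, measured 3.77, 3.41 and 3.41 (percentile 31.3), Flt3 stood at 40.8 and Zbtb46 at 54.0. Clec9a, Cd209a and Xcr1, which mark dendritic cell subsets, stood at 8.83, 26.3 and 41.3, Batf3, a factor of such a subset, at 44.0, and Siglech of plasmacytoid cells at 29.8. The macrophage genes Mrc1 (76.1), Cd68 (70.9), Csf1r (65.2), C1qa (63.2), C1qb (61.8) and Adgre1 (58.0) lay higher than Fcgr1 (30.1). Sirpa stood at 72.5 and the integrin gene Itgam at 61.2. Lyz2, the lysozyme of myeloid cells, measured 8.30, 8.56 and 8.62 and stood at 97.2, and Ccr7, a chemokine receptor gene, at 87.8. These 2 genes stood far above the rest of their list.

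B cell markers had a median percentile of 40.5. Above the median on all 3 arrays were 2 of 9 (22.2%, beside 45.2% of all genes). Those were Fcer2a, which encodes the IgE receptor CD23, at 91.0 and Cd79b, a chain of the B cell receptor complex, at 70.2. The other chain, Cd79a, stood at 24.8, the surface marker Ms4a1, which encodes CD20, at 31.7, and the lineage factors Pax5 at 43.7 and Ebf1 at 40.5. Blk (48.6) and Bank1 (14.99), both of B cell signalling, were also below the middle. Fcer2a was thus alone among B cell markers in the top 25%.

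Fibroblast markers had a median percentile of 59.8, beside 49.8 for all genes. Above the median on all 3 arrays were 8 of 11 (72.7%, beside 45.2% of all genes). In the top 25% were 3 (27.3%, beside 19.7% of all genes). Dcn, the matrix proteoglycan decorin, stood at 88.3, Acta2, the smooth muscle actin, at 85.5 and Col1a1, a collagen I chain, at 82.6. The partner chain Col1a2 stood at 59.8, Col3a1 at 58.2, Col6a1 at 73.7 and the receptor genes Pdgfrb and Pdgfra at 76.7 and 29.0. Postn stood at 57.5, Mgp at 34.4 and Lum, a proteoglycan of the same class as Dcn, at 16.6. Endothelial markers had the lowest median of the cell type lists, 39.2. Pecam1 (39.2), Cdh5 (33.0), Kdr (20.8) and Emcn (8.50), which mark vessel lining, were all below the middle, as were Tek (42.0), Cldn5 (39.5), Esam (35.9), Tie1 (25.1) and Vwf (49.8). Flt1 (62.3) and Plvap (53.4) were just above it. Of the erythroid genes, Hba-a1, a globin gene with near-identical copies, stood at 77.2, Epb42 at 60.4 and Alas2 at 56.5, while Slc4a1 (35.3) and Klf1 (17.5) were low.

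The sex-linked genes matched the label female. Xist, the RNA that silences an X chromosome in female cells, measured 8.24, 9.20 and 9.07 and stood at 98.0. The Y-linked genes Ddx3y, Kdm5d, Uty and Eif2s3y stood at 13.5, 8.45, 3.06 and 1.30, all below the olfactory mark on each array.

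Genes of MHC class II presentation had the highest median of the 10 lists of functions. Of 9 measured genes, 7 were in the top 10% on all 3 arrays (77.8%, beside 6.997% of all genes), and the list median was 99.5. Cd74, H2-Ea and H2-Eb1 led it, with H2-Ea, the alpha chain of I-E, at 10.27, 11.23 and 11.06. H2-DMa, a chain of the chaperone that loads peptide onto class II, was the lowest at 72.4 and measured 5.87, 5.68 and 5.38. Its partner H2-DMb2, for which a near-identical copy exists in the genome so that the share of each is uncertain, stood at 99.1. The promoters of 5 of the 9 genes were in the table of RefSeq promoters (build GRCm38.p6, 250 bases before and 50 after the start). The capitals below mark CTGATTGG, the core of the Y box of class II promoters to which NF-Y binds, and the stretches run from 120 bases before the start to 20 after it. They are shown because the same element lies at a like place before the start of genes at the top of the ranking. The H2-Aa stretch is chr17:34287804-34287943 on the minus strand and the H2-Eb1 stretch is chr17:34305747-34305886 on the plus strand.
H2-Aa: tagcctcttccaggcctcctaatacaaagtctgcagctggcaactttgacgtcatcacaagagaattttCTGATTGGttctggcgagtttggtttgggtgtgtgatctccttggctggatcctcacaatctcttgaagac
H2-Eb1: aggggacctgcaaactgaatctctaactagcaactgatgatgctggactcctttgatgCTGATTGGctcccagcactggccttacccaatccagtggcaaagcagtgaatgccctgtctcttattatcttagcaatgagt
The element began 51 bases before the start in H2-Aa and 62 bases before it in H2-Eb1. H2-Oa, a chain of the inhibitor of peptide loading (percentile 93.9), held it 46 bases before its start, and the stretches of H2-DMa and H2-DMb2 did not hold these letters. CTGATTGG or its reverse complement CCAATCAG was found in 4.10% of all 32851 promoters of this length. A match of letters is a description and does not show that a factor binds there.

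MHC class I presentation had 8 of 13 genes in the top 10% on all 3 arrays (61.5%, beside 6.997% of all genes). None was below the median, and the list median was 94.2. B2m, the light chain of class I, measured 10.86, 11.64 and 11.35. The heavy chain genes H2-D1 and H2-K1 both stood at 99.3, with the caution that class I genes share much sequence, and Nlrc5, the class I transactivator, was the lowest at 74.6. Lysosomal antigen processing had 8 of 9 genes in the top 10% on all 3 arrays (88.9%, beside 6.997% of all genes) and a median of 96.2. The proteases Ctsz (99.03) and Ctsh (97.9) and the thiol reductase Ifi30 (98.8) led it, and Lgmn, an asparagine endopeptidase, closed it at 89.7.

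The genes through which the cells signal to thymocytes and receive signals covered a wider range. Among 12 measured chemokines, 5 were in the top 10% on all 3 arrays (41.7%, beside 6.997% of all genes). Above the median on all 3 arrays were 7 (58.3%, beside 45.2% of all genes), and the list median was 89.6. The inflammatory chemokine gene Cxcl10 (98.98) and Ccl5 (98.6) led, followed by Ccl19, a ligand of CCR7, at 96.9 on 5 probe sets that agreed to within a percentile point. Cxcl12 was the lowest at 25.6. Of 12 costimulatory and coinhibitory genes, 3 were in the top 10% on all 3 arrays (25%, beside 6.997% of all genes). These were the receptor gene Cd40 and the ligand genes Icosl and Cd80, and Cd70 was the lowest of the list at 35.3. Tnfsf4, the OX40 ligand, was named for its spread after the values were seen: it measured 2.80 on wild type 1 but 5.34 and 4.57 on the others, and its percentile of 44.3 became 57.9 without wild type 1. All 19 genes of RANK, CD40 and NF-kB signalling were above the median on all 3 arrays, beside 45.2% of all genes. Their median percentile was 90.3. Nfkbia, the inhibitor that NF-kB itself induces, stood at 99.4, Nfkb2, the subunit of the alternative pathway, at 96.4, and Bcl3, the lowest, at 64.6.

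Of 17 genes for partners of AIRE, 16 were above the median on all 3 arrays (45.2% of all genes) and 4 in the top 10% (6.997% of all genes), with a median percentile of 77.8. Sirt1, the deacetylase that acts on AIRE, measured 8.56, 9.56 and 9.14 (percentile 98.4). Atf7ip (93.8), a partner of methyl-DNA binding protein, and Chd4 (93.4), a chromatin remodeller, followed, and Xrcc6, a subunit of Ku, was the lowest at 49.7. Cell cycle genes had a median of 57.2, beside 49.8 for all genes. Of 16, 10 were above the median on all 3 arrays (62.5%, beside 45.2% of all genes). None was in the top 10% on all 3 arrays, beside 6.997% of all genes. Pcna, the replication clamp, led at 92.1, ahead of Top2a (75.5) and Rrm2 (67.9), and Birc5 was the lowest at 25.4. Immediate early and heat shock genes, which can rise when tissue is digested and cells are sorted, had a median of 92.9. In the top 10% on all 3 arrays were 10 of 19 (52.6%, beside 6.997% of all genes). Hspa8 (99.9), Hspa1b (99.6) and Hsp90aa1 (99.5) led, and Ier3 was the lowest at 44.0. The effect of handling on these levels was not tested. For scale, the 15 housekeeping genes had a median of 94.7, from Eef1a1 and Actb at the top to Tbp at 58.9.

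The highest probe sets of all were those of the common machinery of the cell. Rn28s1, a ribosomal RNA, led at 13.23, 13.11 and 13.19, followed by Eef1a1 at 12.003 ± 0.58 (SD, n = 3) and Actb at 12.001 ± 0.40. The 30 highest probe sets carried 16 different symbols. Of the 30, 13 were probe sets for Gapdh, whose many near-identical copies in the genome give 23 probe sets between percentiles 99.1 and 99.97, and 4 carried placeholder symbols without a known role. Srgn, the core protein of the granule proteoglycan serglycin, stood at 11.60 ± 0.30. Malat1, a nuclear noncoding RNA, stood at 11.44 ± 0.62, and Txn1, the redox protein thioredoxin, at 11.13 ± 0.69. The list also held B2m, Hspa8, Cd74 and 2 probe sets that the authors' table names COX2, a symbol used for unrelated genes and not resolved here. Among 85 cytoplasmic ribosomal protein genes, 65 were in the top 10% on all 3 arrays (76.5%, beside 6.997% of all genes). Their median percentile was 96.8.

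The low end was held by receptor families of the sense organs. The 1069 olfactory receptor genes had a median percentile of 6.52, and 94.0% of their 1109 probe sets lay in the lowest 25%. The 191 vomeronasal receptor genes had a median of 4.17. Of the olfactory receptor probe sets, 5 were above the median on all 3 arrays, beside 45.5% of all probe sets with a symbol. The 37 keratin-associated protein genes, which build hair, had a median of 27.0. In the top 25% on all 3 arrays were 3 genes (8.11%, beside 19.7% of all genes).

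**Figure D3:**
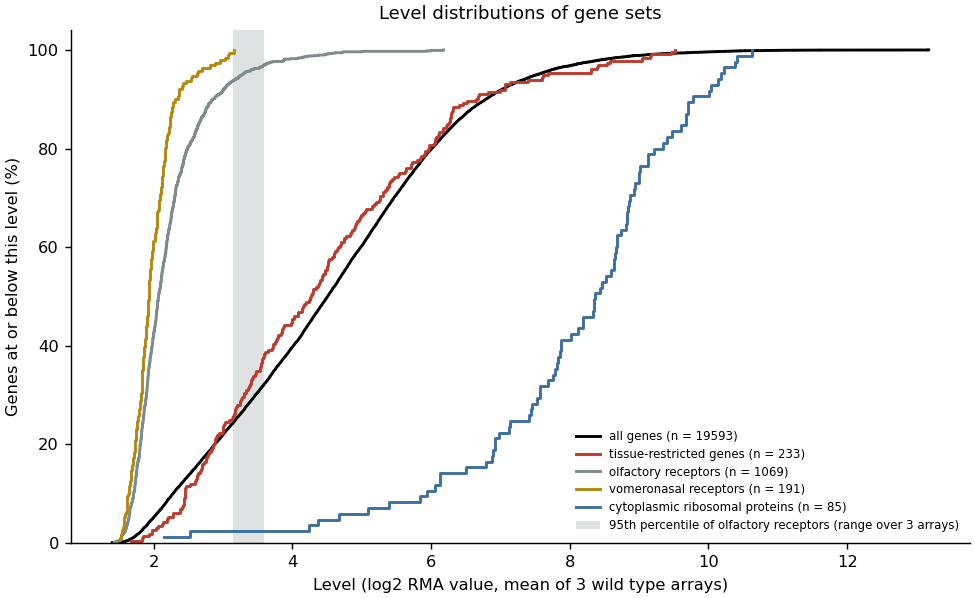
Cumulative share of genes (%) at or below each level (log2 RMA value, mean of the 3 wild type arrays) for all 19593 genes and 4 gene sets. The curve of the 233 tissue-restricted genes runs close to that of all genes, those of the olfactory and vomeronasal receptors lie to the left and that of the 85 ribosomal protein genes to the right.

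Of 242 tissue-restricted genes in 16 lists, 233 were measured, with a median percentile of 44.8. In the top 10% on all 3 arrays there were 17 (7.30%, beside 6.997% of all genes), and 41 were in the top 25% (17.6%, beside 19.7%). Above the median on all 3 arrays there were 89 (38.2%, beside 45.2%). Above the olfactory mark on all 3 arrays there were 146 (62.7%, beside 68.0% of all genes), and 59 were below it on each array. The shares in the top 10% and the top 25% lie near the background, the other 2 shares lie below it, and none was tested. The lists themselves ranged from a median of 91.2 for skin to 18.3 for testis.

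**Figure D4:**
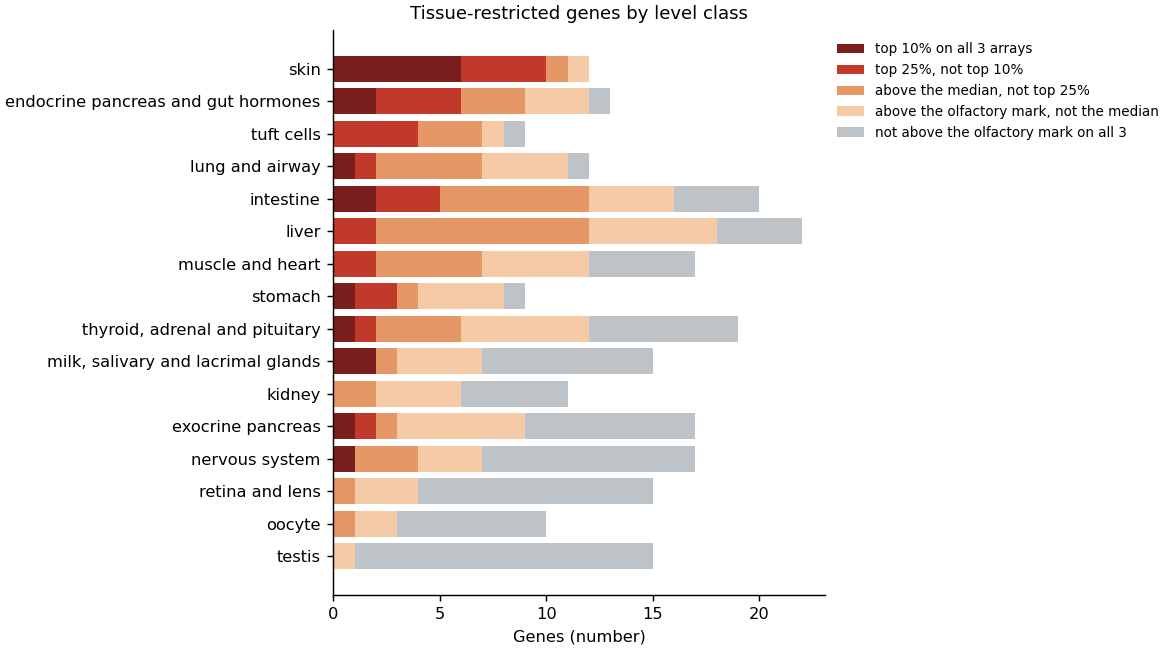
Number of measured genes of each tissue list by level class: in the top 10%, in the top 25%, above the median, above the 95th percentile of olfactory receptors (olfactory mark) on all 3 arrays, or not above that mark on all 3. All 12 skin genes are above the mark, and 14 of the 15 testis genes are not above it on all 3 arrays.

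Genes of the skin were the highest tissue list. On all 3 arrays, 6 of 12 were in the top 10% (50%, beside 6.997% of all genes). In the top 25% were 10 (83.3%, beside 19.7% of all genes). The list named 15 genes, of which Flg, Ivl and Dsg1a were not among the ranked genes. Krt10, a keratin of the upper epidermis, measured 8.85, 9.27 and 9.37 (percentile 98.6). Spink5, an epidermal protease inhibitor, stood at 98.4 and Krt77 at 97.5. Krt2, a keratin of the outer epidermis, was the lowest at 31.9. The keratin genes Krt10 of the upper epidermis, Krt5 and Krt14 of basal cells, and Krt8 and Krt18 of simple epithelium were in the top 10% by mean. This does not hold for keratins as a family. The 48 genes whose symbols share the letters Krt had a median percentile of 60.1, and 10 of them were in the top 10% on all 3 arrays.

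Hormone genes of the endocrine pancreas and gut came next, with a median of 82.1. In the top 25% on all 3 arrays were 6 of 13 (46.2%, beside 19.7% of all genes). Pyy, a gut hormone that curbs appetite, measured 8.23, 8.64 and 8.35 (97.0), Iapp, the islet amyloid peptide, 7.22, 8.09 and 7.49 (94.0), and Sst, somatostatin, 6.94, 6.55 and 6.44 (87.3). The insulin genes were lower. Ins1 was the lowest of the list at 2.65, 2.51 and 2.65 (15.6), below the olfactory mark on each array, and Ins2, picked after its values were seen, stood at 48.2 with 4.50, 4.42 and 4.36. Ins2 was above the mark on every array.

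Tuft cell genes had a median of 79.5. Above the median on all 3 arrays were 7 of 9 (77.8%, beside 45.2% of all genes). In the top 25% were 4 (44.4%, beside 19.7% of all genes). Trpm5, the channel of taste and tuft cell signalling, measured 7.02, 6.59 and 6.87 (89.0). Avil, an actin-binding protein, stood at 84.6 and Pou2f3, the factor that makes tuft cells, at 81.2. Il25, the cytokine that tuft cells release, was the lowest at 31.4. Lung and airway genes had a median of 71.2, led by Bpifa1, a secreted defence protein of the upper airway, at 94.4. Scgb1a1, the club cell secretoglobin, stood at 83.1 and Foxj1, the regulator of motile cilia, at 79.7. Scgb3a2, another secretoglobin, stood at 12.8.

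Intestinal genes had a median of 60.3. Reg3g, an antibacterial lectin of the gut, had the highest percentile by mean level of the tissue-restricted genes, at 8.91, 9.89 and 9.74 (98.97), while on wild type 2 Csn2 was placed higher. Apoa4, an apolipoprotein of the small intestine, stood at 96.6 and Tff3, a trefoil peptide of goblet cells, at 85.2. Lct, the lactase, stood at 22.9. Stomach genes had a median of 49.6, with the proenzyme gene Pgc at 93.0, Tff1 at 80.4, the proton pump subunit gene Atp4a at 78.0 and Gkn2 at 24.6. Liver genes had a median of 55.3, with 12 of 22 above the median on all 3 arrays (54.5%, beside 45.2% of all genes) and none in the top 10% (beside 6.997%). Apoa1, the main protein of high-density lipoprotein, stood at 87.6, the fibrinogen chain gene Fgg at 83.4 and Trf, transferrin, at 82.8. Cyp7a1, the rate-limiting enzyme of bile acid synthesis, was the lowest at 7.36.

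In other lists single genes stood far above the rest. Csn2, the milk protein beta-casein, measured 8.80, 10.05 and 9.52 (98.9), and Lcn2, an iron-binding defence protein that is made in many epithelia, stood at 97.3. The median of their list of milk, salivary and lacrimal gland genes was 36.1, and Csn1s2a was at 79.5 and Pip at 2.87. Csn3, which encodes kappa-casein and was picked after its values were seen, measured 2.72, 2.67 and 2.66 (17.0). The caseins therefore did not lie together. In the exocrine pancreas list, with a median of 30.4, Gp2, a membrane protein of secretory granules, stood at 94.1 and Ctrb1, chymotrypsinogen, at 90.9. Next came Clps, colipase, at 55.1, and Reg2 closed the list at 7.71. In the nervous system list, with a median of 30.1, Syt1, the calcium sensor of synaptic vesicles, measured 8.65, 9.63 and 9.25 (98.6). Gad1 and Gad2 encode the enzymes that make the transmitter GABA. Gad1 stood at 76.2, and Gad2, the lowest of the list, at 13.24. Nefl, a neurofilament subunit, stood at 76.0.

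Thyroid, adrenal and pituitary genes had a median of 45.3. Chga, a granule protein of neuroendocrine cells, stood at 90.9, Calca, which encodes calcitonin, at 81.3 and Cga, the common chain of pituitary hormones, at 65.1. Prl, prolactin, stood at 4.93. Muscle and heart genes had a median of 49.9, led by Tnnt2, the troponin T of the heart, at 90.4 and Actc1, the cardiac actin, at 82.9. Nppa, an atrial hormone, stood at 67.7 and Myh1, a fast myosin, at 13.1. Kidney genes had a median of 33.3. Above the median on all 3 arrays were 2 of 11 (18.2%, beside 45.2% of all genes). Those were the salt transporter gene Slc12a3 (66.5) and Umod (60.8), and Slc22a6 was the lowest at 19.6.

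Genes of the germ line and the eye were the lowest lists. None of 15 testis genes was above the median on all 3 arrays and 1 was above the olfactory mark on all 3, beside 68.0% of all genes. That gene was Prm1, a protamine that packs sperm DNA, at 4.37, 3.31 and 3.43 (34.4), highest on wild type 1. Prm2 stood at 32.1, Tnp2 at 28.6 and Sycp1, a protein of meiotic chromosomes, at 0.787. Oocyte genes had a median of 20.6, with Zar1 at 67.9, where a second probe set stood at 48.2. The egg coat genes Zp2 and Zp3 stood at 54.6 and 34.7, and Bmp15 at 10.3. Retina and lens genes had a median of 20.7 and 4 of 15 above the mark on all 3 arrays (26.7%, beside 68.0% of all genes). Cryaa, a crystallin of the lens, was the exception at 5.50, 6.32 and 6.09 (78.1), and Sag, the retinal arrestin, followed at 37.5. Rpe65, an enzyme of the visual cycle, stood at 4.20.

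**Figure D5:**
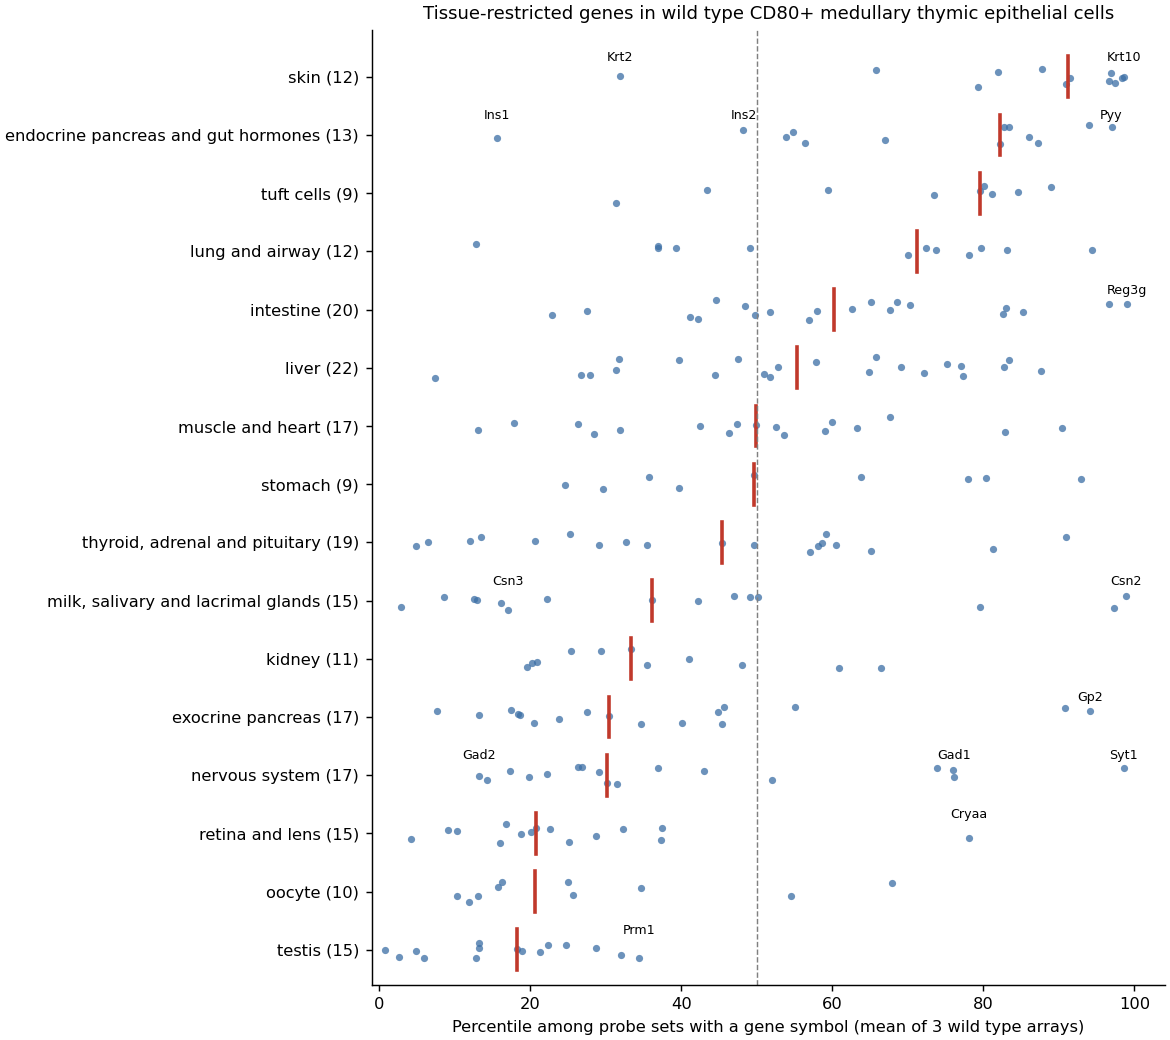
Percentile of each tissue-restricted gene among the probe sets with a symbol (mean of the 3 wild type arrays), 1 point per gene, with the number of measured genes beside each list and the list median as a red bar. The dashed line marks percentile 50. Skin genes cluster on the right with a median of 91.2, testis genes all lie below 35, and Csn2, Syt1 and Reg3g stand far to the right in lists of lower median.

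Transcription factors known from peripheral organs had a median of 55.8. Of 25, 13 were above the median on all 3 arrays, beside 45.2% of all genes, and 7 in the top 25%, beside 19.7%. Spib, a factor of microfold cells and of lymphoid cells, stood at 93.2, Insm1, a factor of endocrine cells, at 89.9 and Ehf, a factor of barrier epithelia, at 89.9. Neurod1, which acts with Insm1 in the pancreatic islet, was the lowest at 2.06, 1.93 and 1.90 (4.75), below the mark on each array.

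Of the 41 tissue-restricted genes in the top 25%, 34 were in the promoter table. The letters TATAAA on the sense strand were found in 11 of these 34 genes (32.4%), beside 8.32% of all 32851 promoters. The share of 32.4% counts genes and that of 8.32% counts promoters, so their bases differ. No share was taken for all 233 tissue-restricted genes, of which 77.7% were in the promoter table, under the 80% minimum. Whether the motif goes with the level of a gene was not tested. Over the whole table the motif was most frequent between 21 and 30 bases before the start. Below are 3 of the 11, chosen because TATAAA, in capitals, lies in that stretch. The first is chr11:99389345-99389484 on the minus strand, the second chr7:30787785-30787924 on the plus strand and the third chr6:78468855-78468994 on the minus strand, with RefSeq as the source and the same build as above. Krtdap is a protein of differentiating skin (percentile 96.9).
Krt10: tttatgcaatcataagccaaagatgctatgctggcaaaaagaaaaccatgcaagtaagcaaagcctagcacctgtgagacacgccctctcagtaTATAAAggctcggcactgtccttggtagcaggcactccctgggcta
Krtdap: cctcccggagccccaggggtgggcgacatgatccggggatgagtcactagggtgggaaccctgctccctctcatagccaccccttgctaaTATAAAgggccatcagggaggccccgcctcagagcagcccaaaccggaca
Reg3g: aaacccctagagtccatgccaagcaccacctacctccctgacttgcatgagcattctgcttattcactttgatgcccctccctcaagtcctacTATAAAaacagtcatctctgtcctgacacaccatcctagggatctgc
The motif began 26, 30 and 27 bases before the start of Krt10, Krtdap and Reg3g. TATAAA is the core of the TATA box, an element of many strongly regulated tissue genes, and its presence in a window does not show that it is used.

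Families were also ranked by symbol, without a list made by hand. Of 307 families of at least 8 genes whose symbols share their letters, 59.6% had a median percentile above 50. The highest were the ribosomal proteins Rpl (97.6) and Rps (93.7), the chaperonin subunits Cct (91.9), the splicing factors Srsf (91.4) and the proteasome subunits Psmb (90.6) and Psma (89.9). The lowest were the killer cell receptors Klra (3.57), the vomeronasal receptors (4.25), the olfactory receptors (6.46), the prolactin family Prl (7.09) and the glucuronosyltransferases Ugt (7.65). Of the 124 families with a median in the lower part, 22 held a member above the 95th percentile. A family of many genes has more chances to hold such a member, and no expected number was computed for this count.

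The spread between arrays of tissue-restricted genes was like that of other genes. Their median SD was 0.211, beside 0.212 for all genes, and their percentile moved over a median range of 5.24 points between arrays, beside 5.15. In all, 45 probe sets (0.209%) had an SD above 1. Among the 100 most variable probe sets with a mean above the median, wild type 1 was the array apart in 99, low in 89 and high in 10. These 100 were chosen by their SD, and the median SD between wild type 2 and 3 alone was 0.0825. The count therefore largely restates that wild type 1 stood apart. Usp17ld, a deubiquitinase gene of a family with close copies, had the largest SD at 4.72, 8.12 and 8.80. Olfr767 read 8.09 on wild type 1 and 4.84 and 5.62 on the others, so its place as the highest olfactory receptor rests on that array. Tdo2, the tryptophan oxygenase of the liver, measured 4.19, 6.62 and 5.91. The 14 probe sets of 6 genes for major urinary proteins lay between percentiles 4.52 and 84.4. Of these, 12 were lower on wild type 1 than on both other arrays. Over the 14, the median difference against the mean of the others was -1.32. These genes resemble one another, so the 14 are not independent readings. The same share over all probe sets was not taken, and wild type 1 was lower at the high end in general (90th percentile 6.65 against 7.20 and 7.05).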

How the data were processed

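RNA of CD80+ medullary thymic epithelial cells was measured on arrays, and the 3 wild type samples were used. The authors deposited log2 values that were made by RMA, per the submitters' processing notes and, at gene level, per the file headers. The sources used here do not give the array design, the annotation release or the software version. The deposited table also holds the same values as linear intensity, and a q-value score of a comparison between groups, per the file headers, and neither was used. The values ran from 0.785 to 13.24 on the 3 arrays, with medians of 4.00, 3.91 and 3.93, and were not centred. The deposited log2 values were taken as they stand.

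Symbols came from the authors' table and were brought up to date through RefSeq accessions (15192 probe sets), current symbols (3746) or synonyms (1262), while 1336 kept the file's symbol. The percentile is 100 times the rank less 0.5, divided by 21536. No comparison between groups was made, and no test. The samples described, the gene lists and the genes named were chosen with earlier results of these data known. Named were the 30 highest probe sets, all markers, the 3 highest and the lowest gene of every other list and the most variable probe sets of the upper part, with exceptions stated, and a few of these genes are not reported here. The calculation was tested on simulated data. Python 3.11.15 with pandas 2.3.3 and numpy 2.4.6 was used. A comparison of promoter composition with level was void, because 73.2% of genes were in the promoter table, under the 80% set as a minimum. Alternatives were the median of arrays, leaving out each array, repeated quantile normalization, other rules for probe sets and other marks for the low end.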

Additional observations from a re-analysis of the deposited data

How the results depend on the processing

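Over 8 alternatives, the number of list genes in the top 10% on all arrays, 98, ranged from 96 to 113. For the median of arrays the rule was looser, since passing on most arrays was enough, and this gave 108. The number of the 39 lists with a median percentile above 50, which was 25, ranged from 25 to 31. The 31 came from ranking all 35552 probe sets, which raised the list medians by a median of 8.36 points, since probe sets without a symbol lie lower. The muscle and heart list changed its side of 50 in 5 of the 8 alternatives. Leaving out 1 array at a time gave between 101 and 102 such genes and between 25 and 26 such lists. The number of tissue-restricted genes above the olfactory mark on all arrays, which was 146, lay between 147 and 161 when 1 array was left out, since fewer arrays then had to be passed. With the 99th percentile of the olfactory receptors as the mark it was 95, and 47.5% of all genes were above that mark. With the 95th percentile of the vomeronasal receptors it was 194, and 81.0% of all genes were above. The share of families with a median above 50 became 57.7% with families of at least 15 genes. No paired analysis was possible because no comparison between groups was made and the groups share no replicate number. The alternative window for TATAAA was not run, since the comparison it belongs to was void. With 3 arrays and no detection call, a gene near the olfactory mark cannot be called present or absent.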

Other observations

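The 100 highest named genes began at percentile 98.8. Of these, 25 were in a list above and 16 were ribosomal protein genes. The genes that follow were picked from the rest after their values were seen, so their high levels are a description. Ptgs2, the inducible cyclooxygenase of prostaglandin synthesis, measured 9.81, 10.51 and 9.98. The lipoxygenase genes Alox12e (9.91 ± 0.33, SD, n = 3) and Alox15 (9.42 ± 0.48) were there too, with Sgpl1 (10.03 ± 0.40) and Sgpp1 (9.44 ± 0.32), which break down sphingosine 1-phosphate. Hdc, the enzyme that makes histamine, stood at 9.40 ± 0.48.

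Krt17, a keratin of activated and basal epithelium, stood at 9.77 ± 0.20, Sprr1a, a protein of the cornified envelope, at 9.57 ± 0.41 and the protease inhibitor gene Spint2 at 9.60 ± 0.27. Cst3, an inhibitor of cathepsins, stood at 10.13 ± 0.48, Psap, the precursor of lysosomal saposins, at 10.32 ± 0.32, and the tetraspanin genes Cd81 and Cd82 at 9.85 ± 0.48 and 9.70 ± 0.47. Ubd, a ubiquitin-like protein that is induced by interferon, stood at 9.51 ± 0.51, and Ifitm3, also induced by interferon, at 10.04 ± 0.15.

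Of the 14016 probe sets without a symbol, 913 (6.51%) were in the top 10% of all probe sets of the array, and their median percentile among all was 34.0.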
